A study of Mus musculus with 16 samples.

Results

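The comparison set 4 arrays of mouse mast cells activated through IgE (IgE_BMMC) against 4 arrays of c-kit-positive mast cell progenitors, taken by their titles as 8 of the 16 arrays of the series. All cells came from Balb/c bone marrow grown in medium with 5 ng/ml IL3 and 20 ng/ml SCF. The progenitors were drawn from such cultures on day 6 by magnetic separation on c-kit, the receptor for SCF. IgE_BMMC were bone marrow-derived mast cells (BMMC) of 4 weeks that had been loaded with an IgE against the hapten DNP and then met DNP antigen for 2 hours. The 2 groups thus differ in time in culture, in the magnetic separation, which the labels give for the progenitors only, and in IgE and antigen, and within these 8 arrays those differences cannot be told apart. The other 8 arrays hold BMMC without IgE crosslinking and mucosal-type mast cells (MMC), which are BMMC kept for 5 more days with IL9 and TGF-beta; they share the estimate of spread, and BMMC are set beside single results near the end. The series calls the 4 arrays of a group biological replicates. The labels name no separate animals or cultures, and the p-values below rest on the spread among these arrays, part of which may be technical. Low signals were raised to a common floor, and a group wholly at the floor has an SD of 0. P-values of miRNAs with such groups, among them miR-451, miR-196b, miR-126-3p and miR-467b, are therefore too small. RNA was measured in bulk samples, so fewer cells of a type and less of a miRNA per cell cannot be told apart. The arrays read only miRNAs, so c-kit and the mast cell proteases, the defining markers of these cells, could not be checked.

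MicroRNAs (miRNAs) are short RNAs that guide Argonaute proteins to messenger RNAs and lower their translation and stability. Targets are found mainly through the seed, bases 2 to 8 of the miRNA, so miRNAs with one seed share many predicted targets. Each is cut from a hairpin precursor, from which 1 arm usually accumulates and the other, written with a star in the array's names, is mostly degraded. Mast cells develop from bone marrow progenitors under SCF and IL3 and release their granules when antigen crosslinks IgE held on their surface receptor. Several of the miRNAs below are known from blood cell development: the miR-17-92 cluster for proliferation and survival of precursors, miR-223 for granulocytes and monocytes, miR-126 and the miR-196 and miR-130 genes for stem and progenitor cells, and miR-132 and miR-212 as transcripts induced by CREB in stimulated cells.

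The sequences behind the main results are those of mature miRNAs in RefSeq (GRCm38.p6), with the seed in capitals; 39 of 40 names looked up were found, and miR-23b is named only. The first set is shown because its members fell together when scaled on lit probes and several share a seed. It comes from 3 related loci: miR-17, miR-18a, miR-19a, miR-20a and miR-92a from the miR-17-92 cluster (chr14:115043671-115044506, plus strand, inside the host gene Mir17hg), miR-106a and miR-20b from the miR-106a-363 cluster (chrX:52741693-52742567, minus strand, overlapping Kis2), and miR-106b, miR-93 and miR-25 from the miR-106b-25 cluster (chr5:138165321-138165818, minus strand, inside Mcm7).
miR-17: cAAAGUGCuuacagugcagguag
miR-20a: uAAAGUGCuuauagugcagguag
miR-106a: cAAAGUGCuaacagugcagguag
miR-20b: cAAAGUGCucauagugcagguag
miR-93: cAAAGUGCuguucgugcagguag
miR-106b: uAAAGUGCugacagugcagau
miR-18a: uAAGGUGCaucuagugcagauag
miR-19a: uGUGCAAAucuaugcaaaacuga
miR-92a: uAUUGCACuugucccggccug
miR-25: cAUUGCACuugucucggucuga
The first 6 share the seed AAAGUGC, and miR-92a and miR-25 share AUUGCAC. The sequence of miR-92a has another locus besides the one in the miR-17-92 cluster. MiR-17 and miR-106a are 1 base change apart along their whole length, and miR-17 and miR-20a are 2 apart, so a probe for one may also bind another. How far the probes keep them apart was not tested.

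The second set is shown because pairs with one seed went different ways, or because the miRNA led the rises or falls. MiR-146a (chr11:43374435-43374456, minus strand) and miR-146b (chr19:46342790-46342811, plus strand) lie on different chromosomes and are 2 base changes apart. MiR-132 and miR-212 come from 1 locus (chr11:75173388-75173747, plus strand) and are 5 apart. MiR-34a (chr4:150068473-150068494, plus strand), miR-22 (chr11:75463772-75463793, plus strand, in Mir22hg), miR-223 (chrX:96242884-96242905, plus strand, in F630028O10Rik), miR-451 (chr11:78073186-78073207, plus strand) and miR-130a (chr2:84741116-84741137, minus strand) are among the largest changes.
miR-146a: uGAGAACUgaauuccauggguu
miR-146b: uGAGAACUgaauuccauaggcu
miR-132: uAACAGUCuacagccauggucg
miR-212: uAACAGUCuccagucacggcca
miR-34a: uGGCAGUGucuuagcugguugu
miR-34b-5p: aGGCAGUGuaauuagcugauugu
miR-22: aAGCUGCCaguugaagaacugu
miR-24-1*: gUGCCUACugagcugauaucagu
miR-24-2*: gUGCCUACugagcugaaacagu
miR-223: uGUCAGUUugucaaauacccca
miR-451: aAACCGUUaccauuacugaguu
miR-130a: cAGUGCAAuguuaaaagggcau
miR-130b: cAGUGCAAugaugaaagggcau
MiR-24-1* and miR-24-2* are the star arms of the 2 loci that give miR-24.

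The comparison was chosen because both groups were taken to be of like brightness, and this held for the lit miRNA probes but not for the dark ones or the control features. Over the 205 probes well above background on all 16 arrays, the 75th percentile of the unscaled signal was 436, 352, 342 and 440 intensity units on the progenitor arrays and 419, 405, 311 and 407 on the IgE_BMMC arrays. The groups overlapped and their means, 393 ± 52.6 and 385 ± 50.2 (SD, n = 4 each), differed by less than the spread within a group (exact two-sided permutation test, p = 0.914). Since the comparison was chosen on a like 75th percentile of raw signal, this test is no support for a match. With 4 arrays in each group a large p-value also does not show that the groups are alike. Over all probes, most of them dark, the percentile was 10.2 ± 6.54 in progenitors and 3.55 ± 0.419 in IgE_BMMC (SD, n = 4 each; exact two-sided permutation test, p = 0.0286, the smallest that 70 arrangements can give). The bright corner control features, which carry no miRNA probe, read 1240 to 1602 in progenitors and 246 to 580 in IgE_BMMC, 3.39-fold apart, and 5 other control features were 1.41 to 2.26 lower in IgE_BMMC on the log2 scale. No IgE_BMMC array reached a progenitor array in any of these 6 control features (exact two-sided permutation test, p = 0.0286 each, 0.0393 after Benjamini-Hochberg adjustment over 11 measures).

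**Figure D1:**
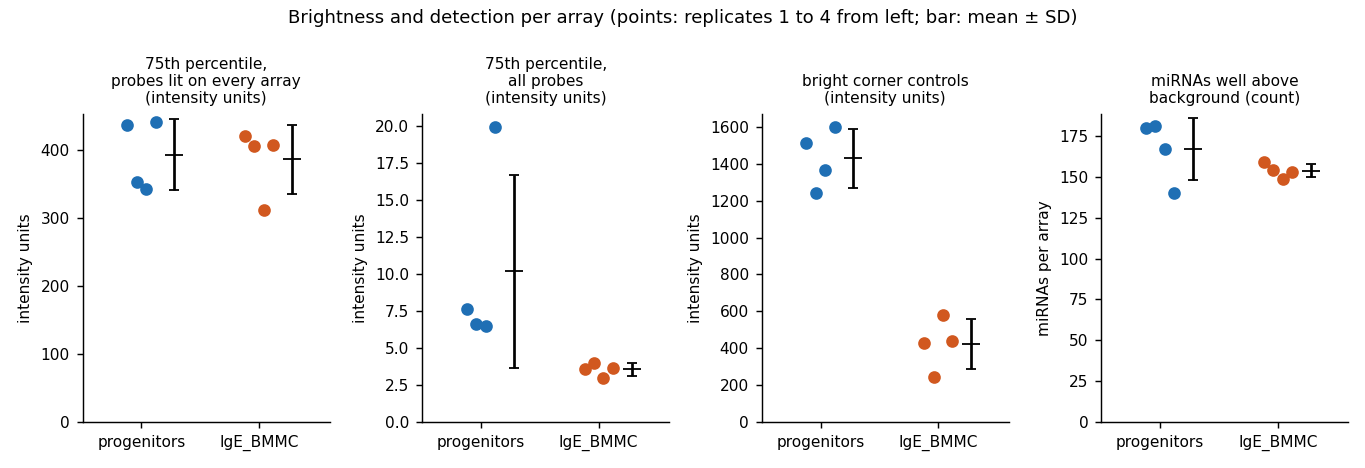
Brightness and detection on each of the 8 arrays, as intensity units or numbers of miRNAs, with mean ± SD beside the points. The lit probes overlap between groups, whereas the bright corner controls of all 4 progenitor arrays (lowest 1240) lie above those of all 4 IgE_BMMC arrays (highest 580).

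The numbers of miRNAs well above background were 180, 181, 167 and 140 on the progenitor arrays and 159, 154, 149 and 153 on the IgE_BMMC arrays, a difference of -13.25 that did not pass an exact two-sided permutation test (p = 0.257). Without progenitor replicate 4 the groups did not overlap and the difference was -22.25 (exact two-sided permutation test, p = 0.0571, the smallest that 3 against 4 arrays can give). That array stood apart: its lowest lit signal was 58.3 intensity units after scaling, against at most 20.2 on the other progenitor arrays. Leaving it out kept the call, or the lack of one, and the direction of 74 of the 77 miRNAs looked at singly; miR-30b and miR-10a lost their calls and miR-212 gained one.

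Of 177 miRNAs tested, 140 (79.1%) differed between the groups at an adjusted p under 0.05 (limma with Benjamini-Hochberg adjustment, signals scaled on the lit probes). Of these, 50 were higher in IgE_BMMC (28.2% of those tested) and 90 lower (50.8%). The 2 groups of arrays did not overlap for 121 of the 177 (68.4%), of which 120 were called. Among the falls 19 were lit on no IgE_BMMC array, and among the rises 6 on no progenitor array. These were tested through 1 group alone, so their direction is not independent of the condition for a test. For 4 of the 6 rises no fold could be given. With so many called, a call for 1 miRNA says little by itself, and sizes are given throughout. A difference of at least 2-fold was reached by 82 calls, 24 of them higher and 58 lower, and the median over all tested was -0.39 on the log2 scale. Without progenitor replicate 4, 145 were called, 50 higher and 95 lower.

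The split into rises and falls moved with the scaling. Scaled on the 75th percentile of all probes, 104 were called higher and 33 lower, and scaled on the bright corner controls, 109 and 16, which shift every difference between values above the floor by 1.32 and 1.79 on the log2 scale and move the median over all tested to 0.83 and 1.23. The series' own value table gave 88 higher and 41 lower, quantile normalisation 77 and 60. Across 5 other scalings (all probes, none, quantile, and 2 kinds of control feature, the last 2 added after the data were seen), 53 of the 140 calls kept their call and direction. Among these, 37 were higher and 16 lower in IgE_BMMC. The falls that held were miR-223, miR-451, miR-130a, miR-18a, miR-19a, miR-17, miR-106a, miR-20a, miR-20b, miR-92a, miR-196b, miR-126-3p, miR-711, miR-706, miR-714 and miR-685. The rises that held included miR-132, miR-34a, miR-34b-5p, miR-22, miR-146b, miR-21, the 7 tested members of the miR-23/27/24 clusters and miR-29a, miR-29b and miR-29c.

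**Figure D2:**
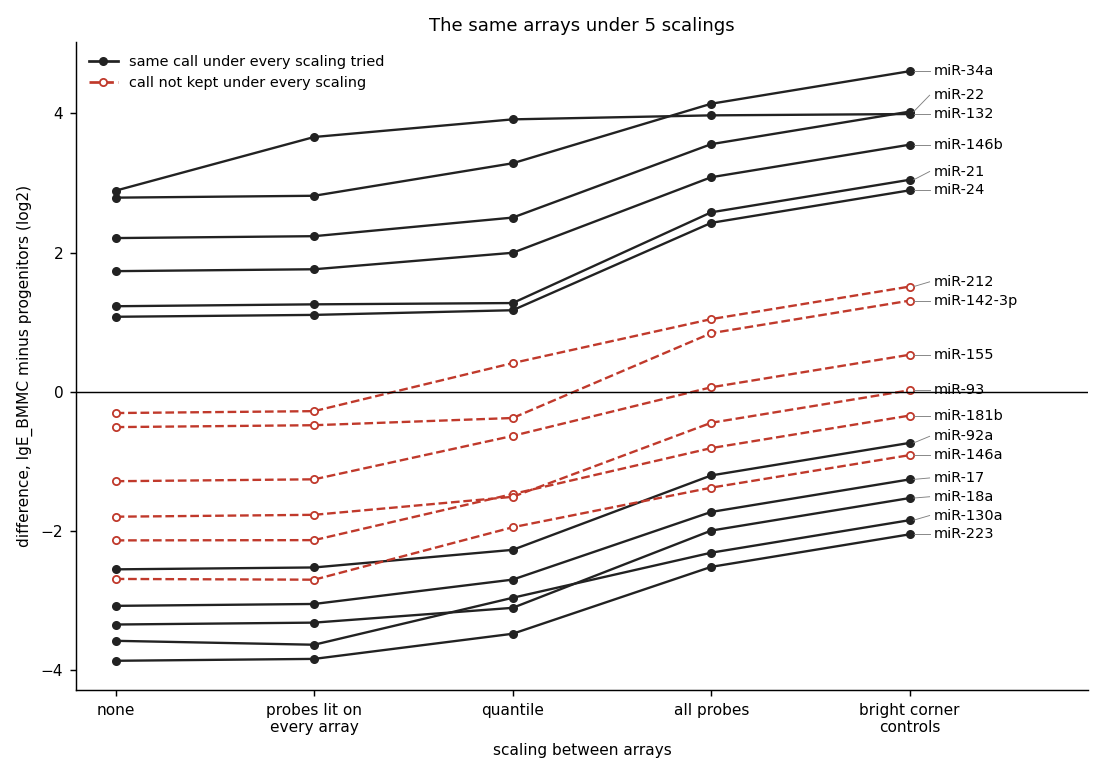
Log2 difference of 17 miRNAs (IgE_BMMC minus progenitors) under 5 scalings of the same arrays, with filled points where the call held under all 5 other scalings. MiR-223 stays between -3.87 and -2.05 and miR-34a between 2.79 and 4.61, whereas miR-142-3p crosses zero.

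The miR-17-92 cluster and its 2 paralogous clusters, which favour the cell cycle in blood cell precursors, were lower in IgE_BMMC in all 16 tested members of 21 on the array when scaled on lit probes. Of all tested, 50.8% were called lower. The star arms miR-18a* and miR-19a* were lit on no IgE_BMMC array and were tested through the progenitors alone. The median difference of the 16 was -2.17 on the log2 scale (-2.12 with 2 star arms at their bound, -2.23 without progenitor replicate 4), against -0.39 over all tested. The median stayed below 0 under the 5 other scalings, at -2.11 with none, -1.75 with quantile, -1.01 with all probes, -0.58 with bright corner controls and -0.59 with a second kind of control feature, in each case below the median of all tested. The number of members called lower went from 16 to 10 with all probes and 7 with bright corner controls. With the second kind of control feature, 8 members were called lower and 2 higher.

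MiR-18a, which shares its cluster with miR-17 but has a seed of its own, read 9.38, 9.56, 9.35 and 9.24 on the progenitor arrays and 6.04, 6.07, 6.07 and 6.08 on the IgE_BMMC arrays (log2 intensity). The IgE_BMMC arrays lay within a narrow band, far below every progenitor array. It fell 9.98-fold (log2 -3.32, SE 0.16, limma adjusted p = 3.99e-10). MiR-19a, from the same cluster, read 11.18, 11.39, 11.05 and 11.00 in progenitors and 8.06, 8.00, 7.43 and 8.17 in IgE_BMMC. Again no array of one group reached the other, and the fall was 9.45-fold (-3.24, SE 0.18, adjusted p = 1.36e-09 in limma).

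MiR-17 read 8.97, 9.22, 8.83 and 8.73 in progenitors and 5.93, 5.95, 5.76 and 5.92 in IgE_BMMC, and fell by 3.05 on the log2 scale (SE 0.19). Its sister in the cluster, miR-20a, read 11.32, 11.60, 11.18 and 11.20 in progenitors and 8.54, 8.52, 7.94 and 8.55 in IgE_BMMC, with 1 array below the other 3. MiR-106a and miR-20b, from the X-linked paralogous cluster, fell by 3.02 (SE 0.19) and 2.87 (SE 0.15) on the log2 scale. MiR-92a, the last member of the cluster, fell by 2.53 (SE 0.12) and miR-19b by 2.34 (SE 0.11). The sequences of miR-92a and miR-19b have another locus each, so their signal is not from this cluster alone.

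The miR-106b-25 cluster, hosted by the replication gene Mcm7, fell less than miR-17 on the same arrays. MiR-25 fell by 1.82 (SE 0.19), miR-93 by 1.77 (SE 0.12) and miR-106b by 1.05 (SE 0.12). Within an array the difference of miR-17 from another miRNA, which dividing an array by 1 factor does not change while both are above the floor, fell from progenitors to IgE_BMMC by 2.00 against miR-106b, 1.28 against miR-93 and 1.23 against miR-25, and in none of the 3 did the groups overlap. Quantile normalisation does change such differences, and with it the first was -1.72. MiR-106b was higher in IgE_BMMC with all probes (0.27) and with bright corner controls (0.74), so its own direction was not settled. With bright corner controls miR-93 was at 0.021 and miR-25 at -0.033, and neither kept its call under all 5 other scalings. The star arms miR-17* and miR-20a* fell by 1.62 (SE 0.15) and 1.89 (SE 0.18), and the within-array differences from miR-17 and miR-20a rose by 1.43 and 1.04 without overlap. With bright corner controls miR-17* was at 0.17 and miR-20a* at -0.10, and neither call held under every scaling.

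**Figure D3:**
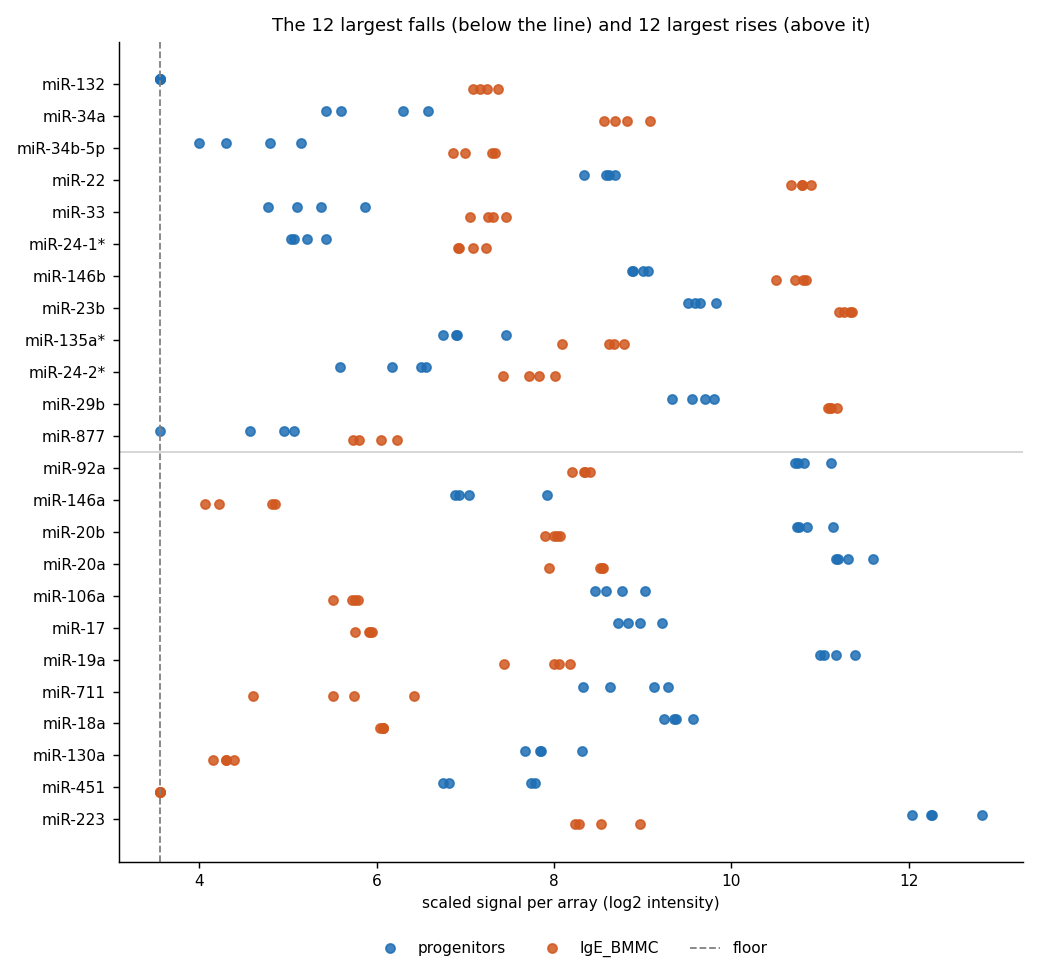
Scaled signal (log2 intensity) on each of the 8 arrays for 12 falls and 12 rises, the largest that were called and had no overlap between groups. The dashed line is the floor, on which miR-132 sits on all 4 progenitor arrays and miR-451 on all 4 IgE_BMMC arrays.

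Among 13 miRNAs known from stem and progenitor cells, 5 could be tested and all 5 were called lower in IgE_BMMC, beside 50.8% of all tested. MiR-196b and miR-126-3p among them were lit on no IgE_BMMC array and were tested through the progenitors alone. Their direction is not independent of the condition for a test, so the count of 5 is no support by itself. The median of the 5 was -1.77 on the log2 scale (-2.01 without progenitor replicate 4, -0.99 with all probes). With no scaling or quantile normalisation 4 were called lower, and with all probes or either kind of control feature 3. The other 8 did not reach background on enough arrays of either group. MiR-130a, a progenitor miRNA of megakaryocytic and myeloid lineages, read 7.84, 8.32, 7.68 and 7.86 in progenitors and 4.30, 4.15, 4.39 and 4.30 in IgE_BMMC, where 3 of 4 arrays were above background. It fell 12.4-fold (log2 -3.64, SE 0.15, limma adjusted p = 1.02e-10). Its family member miR-130b, with the same seed and 2 base changes away, fell by 1.77 (SE 0.14), and the within-array difference between them fell by 1.87. MiR-196b, which lies among the Hoxa genes, was above background on all 4 progenitor arrays, at 6.15, 6.01, 5.44 and 6.42, and on no IgE_BMMC array, so that it was at least 4.47-fold lower there (adjusted p = 1.95e-09, limma). Its SD was 0.41 in progenitors and 0 in IgE_BMMC, BMMC and MMC, all at the floor, which makes this p-value too small. MiR-126-3p, from an intron of Egfl7 and known from stem and endothelial cells, was lit on 3 progenitor arrays and no IgE_BMMC array and was at least 2.59-fold lower (limma adjusted p = 6.61e-05; the call was lost within slide 1, at an adjusted p of 0.0674). MiR-196b, miR-130a and miR-126-3p were lower under the 5 other scalings too, whereas miR-130b was at 0.024 with bright corner controls. MiR-10a, which lies among the Hoxb genes, read 5.38, 5.78, 4.54 and 6.62 in progenitors and 4.69, 4.95, 4.55 and 4.23 in IgE_BMMC, and the groups overlapped. Its difference was -0.98 (SE 0.37, limma adjusted p = 0.0273), and -0.63 without progenitor replicate 4, where the call was lost (limma adjusted p = 0.0923). The call was also lost without progenitor replicate 2 or IgE_BMMC replicate 3 or 4, at limma adjusted p-values of 0.0627, 0.0519 and 0.0742. With all probes miR-10a was 0.35 and with bright corner controls 0.66, so its direction was not settled.

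MiR-223, abundant in granulocytes and monocytes and driven by the myeloid factors PU.1 and C/EBP, showed the largest fitted fall among miRNAs lit in both groups when scaled on lit probes. It read 12.26, 12.83, 12.25 and 12.04 on the progenitor arrays and 8.24, 8.97, 8.53 and 8.28 on the IgE_BMMC arrays. The groups lay far apart, and the fall was 14.3-fold (log2 -3.84, SE 0.20, limma adjusted p = 7.08e-10; -3.94 without progenitor replicate 4). It remained well above background on all 4 IgE_BMMC arrays. MiR-451, which is processed by Argonaute 2 and accumulates in red cell precursors, read 6.75, 7.74, 7.79 and 6.82 in progenitors and was above background on no IgE_BMMC array. It was at least 10.8-fold lower in IgE_BMMC (limma adjusted p = 7.18e-10).

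The 9 myeloid miRNAs were all tested and moved both ways: 3 were called higher and 6 lower, beside 28.2% and 50.8% of all tested. Their median of -0.52 turned to 0.81 with all probes and 1.23 with bright corner controls. MiR-142-3p and miR-142-5p, both arms of a hairpin active throughout blood cells, differed by -0.48 (SE 0.077) and -0.52 (SE 0.079), and both turned positive under those scalings. MiR-191 and miR-425 come from 1 cluster: miR-425 fell by 1.88 (SE 0.076), and miR-191, lit on 3 progenitor arrays and no IgE_BMMC array, was at least 3.7-fold lower (limma adjusted p = 7.34e-07), both scaled on lit probes. With bright corner controls miR-425 was at -0.087 and miR-191 at -0.18, and neither kept its call under all 5 other scalings. MiR-338-3p rose by 0.64 (SE 0.092) and was higher under the 5 other scalings too.

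MiR-22, which is abundant in maturing myeloid cells and represses Tet2, was among the 12 largest rises without overlap between groups. It read 8.34, 8.58, 8.68 and 8.62 in progenitors and 10.67, 10.80, 10.89 and 10.79 in IgE_BMMC, with little spread in either group. It rose 4.71-fold (log2 2.23, SE 0.075, limma adjusted p = 2.50e-11). Its star arm was lit on no progenitor array and on all 4 IgE_BMMC arrays. At levels of 4.21 to 4.72 in IgE_BMMC, miR-22* stood too near the detection limit of the progenitor arrays to give a fold, although limma called it (adjusted p = 2.65e-07).

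MiR-132, which CREB induces in stimulated neurons and immune cells, was above background on no progenitor array and on all 4 IgE_BMMC arrays. It sat at the floor of 3.56 on every progenitor array and read 7.09, 7.16, 7.25 and 7.37 in IgE_BMMC. It was at least 6.33-fold higher in IgE_BMMC (limma adjusted p = 4.96e-11). MiR-212, cut from the same primary transcript and bearing the same seed, was lit on all 8 arrays, at 7.46, 7.59, 7.23 and 6.88 in progenitors and 6.98, 6.92, 7.11 and 7.04 in IgE_BMMC. The groups overlapped, and its difference of -0.28 (SE 0.15) did not pass the test (limma adjusted p = 0.0948). Without progenitor replicate 4 it was -0.42, past the threshold at an adjusted p of 0.00821 in limma, and with all probes it was 1.04. A second probe for miR-212 gave 0.99, of the opposite sign, while the second probe for miR-132 gave 3.29.

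The miR-34 family, transcribed under p53 and known to slow the cell cycle, had 2 tested members of 5, and both rose. MiR-34a read 5.43, 5.60, 6.30 and 6.58 in progenitors and 8.69, 8.82, 8.57 and 9.08 in IgE_BMMC, and miR-34b-5p read 4.30, 4.00, 5.14 and 4.80 and 6.86, 6.99, 7.34 and 7.30. No array of one group reached the other in either. MiR-34a rose 7.04-fold (log2 2.82, SE 0.22, limma adjusted p = 5.08e-08; 3.02 without progenitor replicate 4) and miR-34b-5p rose 5.91-fold (log2 2.56, SE 0.21), with only 2 progenitor arrays above background. They share a seed but lie on different chromosomes, miR-34b in a cluster with miR-34c (chr9:51103034-51103645, minus strand, overlapping Btg4 and Hoatz).

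All 7 tested members of the miR-23/27/24 clusters rose, by 0.95 to 1.85 on the log2 scale with a median of 1.24, and all 7 were called higher under each of the 5 other scalings. Of all 177 tested, 50 were called higher when scaled on lit probes, 37 with no scaling, 77 with quantile normalisation and 104 with all probes. With bright corner controls and the second kind of control feature 109 and 123 were, so that a call there says little by itself. The family is made by 2 loci, miR-23a/27a/24-2 (chr8:84208518-84208921, plus strand) and miR-23b/27b/24-1 (chr13:63300484-63301275, plus strand, inside Aopep). The members of the second locus rose more on the same arrays: miR-23b by 1.66 (SE 0.081) against 0.99 (SE 0.13) for miR-23a, and miR-27b by 1.24 (SE 0.076) against 0.95 (SE 0.077) for miR-27a. Within an array these differences rose by 0.67 and 0.29, and the groups did not overlap. For miR-27b and miR-27a the groups nearly met, at -0.057 on progenitor replicate 2 and -0.048 on IgE_BMMC replicate 2. IgE_BMMC replicate 3 was the highest array for both pairs. It read -0.34 for miR-23b from miR-23a, where the next highest was -1.01, and 0.56 for miR-27b from miR-27a, where the next was 0.16. MiR-27a and miR-27b differ by 1 base change, and whether the probes keep them apart was not tested. MiR-24, the arm that both loci give, rose 2.15-fold. The star arms tell the loci apart, within the limits of a 2-base change. MiR-24-1* read 5.04, 5.22, 5.43 and 5.07 in progenitors and 6.92, 7.09, 7.23 and 6.92 in IgE_BMMC and rose by 1.85 (SE 0.096). MiR-24-2* read 6.18, 6.50, 6.56 and 5.58 and 7.83, 8.01, 7.43 and 7.71 and rose by 1.54 (SE 0.18), with progenitor replicate 4 the lowest of its group. Within an array the difference from miR-24 rose by 0.75 for miR-24-1*, without overlap, and by 0.44 for miR-24-2*, with overlapping groups.

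In the miR-29 family, which targets collagens and DNA methyltransferases, 4 of 5 tested members rose, beside 28.2% of all tested. MiR-29b rose by 1.53 (SE 0.079), miR-29c by 1.25 (SE 0.090) and miR-29a by 1.02 (SE 0.088), and these 3 held under the 5 other scalings. MiR-33, from an intron of the sterol regulator gene Srebf2 (chr15:82198122-82198190, plus strand), read 5.37, 4.77, 5.87 and 5.11 in progenitors and 7.31, 7.46, 7.26 and 7.05 in IgE_BMMC. It rose by 1.99 (SE 0.17), by 2.44 on slide 1 and 1.54 on slide 2. MiR-135a* and miR-877 completed the 12 largest rises among called miRNAs without overlap between groups, at 1.54 (SE 0.18) and 1.42 (SE 0.26); the difference of miR-877 was 1.09 without progenitor replicate 4, which lies at the floor for it.

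Of 8 miRNAs known from inflammatory responses 5 could be tested, 3 higher and 2 lower, beside 28.2% and 50.8% of all tested. Both miR-146 genes were among them. MiR-146a and miR-146b are induced by NF-kB in innate immune cells and share a seed. MiR-146a read 6.93, 7.92, 7.05 and 6.88 in progenitors and 4.07, 4.86, 4.82 and 4.22 in IgE_BMMC. MiR-146b read 9.00, 9.06, 8.87 and 8.89 and 10.72, 10.84, 10.51 and 10.80. The groups did not overlap for either, and the directions were opposite: miR-146a fell 6.51-fold (log2 -2.70, SE 0.30, limma adjusted p = 1.98e-06) and miR-146b rose 3.39-fold (log2 1.76, SE 0.069, limma adjusted p = 7.78e-11). Within an array the difference of miR-146b from miR-146a rose by 4.46 on the log2 scale (4.54 without progenitor replicate 4), with no overlap between groups. Under the scalings, miR-146a stayed below 0 at -1.38 with all probes and -0.91 with bright corner controls, but its call did not hold under all of them. The rise of miR-146b held under all 5.

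MiR-21, a widely induced miRNA cut from a transcript that overlaps Vmp1 (chr11:86584067-86584158, minus strand), read 12.31, 12.69, 12.45 and 12.54 in progenitors and 13.74, 13.67, 13.64 and 13.96 in IgE_BMMC and rose by 1.25 (SE 0.087). Every IgE_BMMC array lay above every progenitor array. Its star arm was lit on no progenitor array and on all 4 IgE_BMMC arrays, at least 1.04-fold higher there, and its call (limma adjusted p = 0.018) was lost when progenitor replicate 1 or 2 or IgE_BMMC replicate 2 was left out, at adjusted p-values of 0.0631, 0.063 and 0.0573. MiR-155, cut from the Bic transcript and known from activated lymphocytes and macrophages, fell by 1.26 (SE 0.17), with 0.063 under all probes, so that its direction was not settled. The other 3 on the list, miR-147, miR-9 and miR-9*, were below the condition for a test.

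The members of the miR-181 family, best known from lymphocyte development, changed unequally. MiR-181b and miR-181d fell by 2.13 (SE 0.16) and 2.47 (SE 0.16) when scaled on lit probes, miR-181d being above background on 2 of 4 IgE_BMMC arrays and at the floor on replicate 3, whereas miR-181a read 6.07, 6.40, 6.27 and 6.70 in progenitors and 6.36, 6.48, 6.39 and 6.21 in IgE_BMMC, a difference of 0.00 (SE 0.12) with an adjusted p of 0.992 in limma. Within an array the difference of miR-181a from miR-181b rose by 2.14 on the log2 scale and that of miR-181d, with 1 value at the floor, from miR-181a fell by 2.47, without overlap of the groups. The family's median of -1.19 was 0.13 with all probes, and no member kept its call under all 5 other scalings.

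The larger families shared by most cell types differed little when scaled on lit probes. In the let-7 family, which restrains Lin28 and Ras, 4 of 10 tested members were higher and 1 lower, beside 28.2% and 50.8% of all tested. The median was 0.086, let-7i at 0.79 (SE 0.10) was the highest and let-7c stood at 0.37 (SE 0.089). In the miR-30 family 2 of 6 rose, miR-30b by 0.24 (SE 0.10) and miR-30d by 0.22 (SE 0.068), and the call of miR-30b was lost when any one of 6 of the 8 arrays was left out, at adjusted p-values of up to 0.143. The family's median was 0.16. With all probes as the scale the medians of the 2 families were 1.41 and 1.43.

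Paralogous pairs in 3 further families changed unequally. In the miR-15/16 family, which represses cyclins and Bcl2, miR-15a was 0.55 (SE 0.082) and miR-195 0.78 (SE 0.077) higher, while miR-15b was -0.54 (SE 0.091) and miR-16 -0.30 (SE 0.044) on the log2 scale. MiR-101a rose by 0.86 (SE 0.14) and miR-101b fell by 0.88 (SE 0.13), both known to repress Ezh2. MiR-193 rose by 1.46 (SE 0.47), with 2 progenitor arrays above background. Its call was lost within slide 1 and within slide 2, at limma adjusted p-values of 0.0906 and 0.0797. MiR-193b fell by 1.67 (SE 0.23). Within an array these differences changed by 1.09 for miR-15a and miR-15b, 1.75 for miR-101a and miR-101b and 3.13 for miR-193 and miR-193b, and in each of the 3 the groups did not overlap. The falls of miR-15b, miR-16 and miR-101b turned to rises with all probes or control features as the scale, and that of miR-193b with bright corner controls (0.12). MiR-365, which shares a cluster with miR-193b, was at -0.41 (SE 0.14) and turned likewise. MiR-26a and miR-26b rose by 1.03 (SE 0.080) and 0.82 (SE 0.079) and miR-107 by 0.35 (SE 0.066). MiR-221 and miR-222, which repress Kit, the receptor used for the separation, were at -0.14 (SE 0.11, limma adjusted p = 0.228) and -0.50 (SE 0.15, limma adjusted p = 0.00868), and turned positive with all probes.

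**Figure D4:**
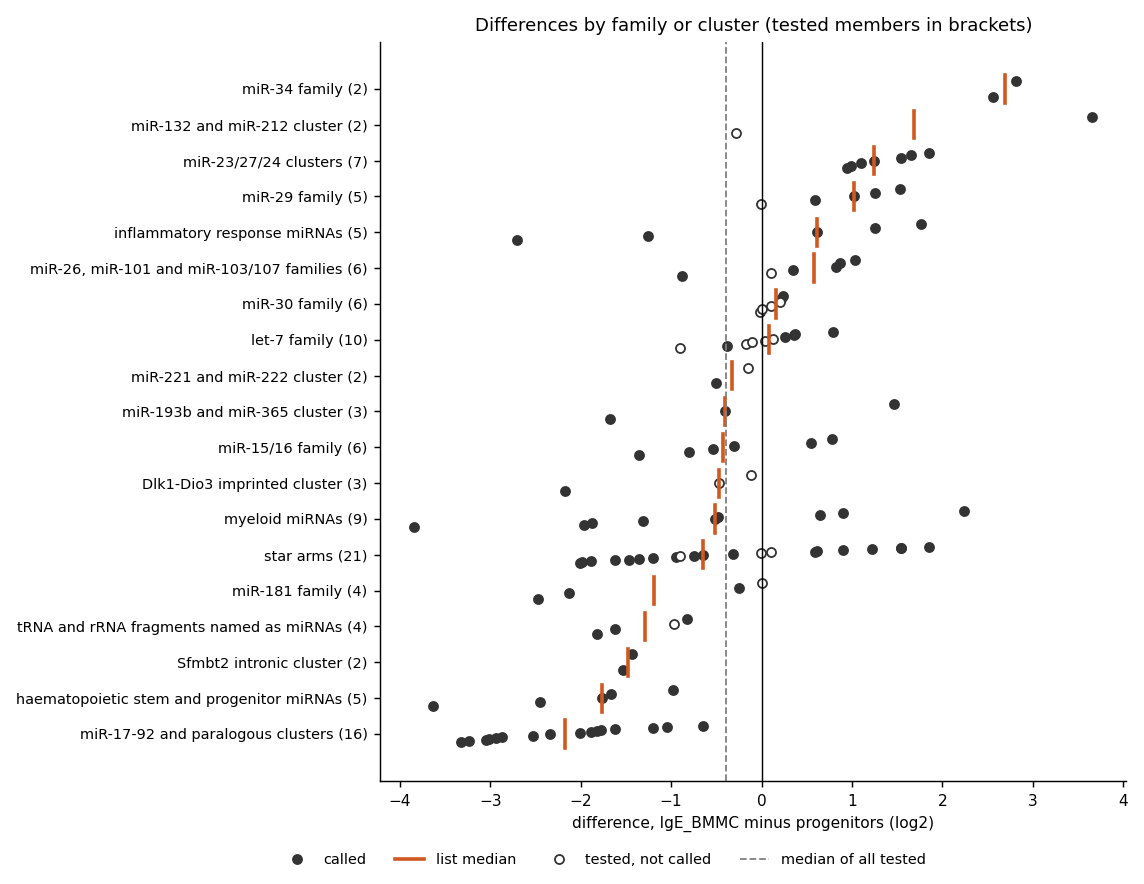
Log2 difference (IgE_BMMC minus progenitors) of every tested member of 19 lists, with the list median as a bar and the median of all tested miRNAs (-0.39) as a dashed line. With lit probes as the scale the miR-17-92 group lies wholly to the left of that line, although miR-106b turned to 0.27 with all probes, and the miR-23/27/24 clusters lie wholly to the right of 0.

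Star arms show whether both products of a hairpin moved. Of 114 star arms on the array 21 could be tested, 7 higher and 11 lower, beside 28.2% and 50.8% of all tested, and 20 had a tested partner arm. The split was 11 higher and 4 lower with all probes, and 10 higher and 0 lower with bright corner controls. Of the 21, 7 were lit on no array of 1 group and were tested through the other group alone. Both arms were called in 17 pairs, in the same direction in 15 of them, 6 higher and 9 lower when scaled on lit probes. Among these 15, miR-18a*, miR-19a*, miR-130b*, miR-191*, miR-21* and miR-22* were tested through 1 group alone. Their direction is not independent of the condition for a test, and miR-24 is the partner of both its star arms, so the count of 15 is no support by itself. The 2 that disagreed were let-7c-2* with let-7c and miR-140* with miR-140, in each of which the star arm was lower and the main arm higher when scaled on lit probes. MiR-15b* fell by 1.35 (SE 0.079), and its within-array difference from miR-15b fell by 0.81 without overlap. With quantile normalisation the change in that difference was -0.17. MiR-15b* itself was at -0.030 with all probes and 0.44 with bright corner controls, and its call did not hold under every scaling. The median of the star arms was -0.65, and 0.58 with all probes.

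Of the maternally expressed Dlk1-Dio3 cluster, 45 of 48 miRNAs were above background on no IgE_BMMC array and 43 on no progenitor array. Scaled on lit probes, miR-370 was the 1 member called, at 6.52, 5.90, 6.13 and 6.73 in progenitors and 4.17, 3.93, 4.15 and 4.32 in IgE_BMMC, a fall of 2.18 (SE 0.18). It was at -0.85 with all probes and -0.39 with bright corner controls, and its call did not hold under all 5 other scalings. With all probes 2 of the 3 tested members were called higher and 1 lower, beside 104 and 33 of all 177. With either kind of control feature 2 were called higher and 0 lower. From the cluster in the Sfmbt2 intron, miR-466f-3p and miR-467b were lit on 3 progenitor arrays each and on no IgE_BMMC array. When scaled on lit probes they were at least 2.46-fold and 2.2-fold lower (limma adjusted p = 1.24e-06 and 2.22e-10). With bright corner controls they were at 0.29 and -0.068, and neither was called lower with either kind of control feature. Of 4 tested entries that are named as miRNAs but match fragments of other RNAs 3 were lower, with miR-720 lower by 0.82 (SE 0.13) and miR-805 by 1.62 (SE 0.22). MiR-720 turned to 0.50 with all probes, and miR-805 to 0.17 with bright corner controls. MiR-711 read 8.64, 8.32, 9.13 and 9.29 in progenitors and 6.42, 5.74, 4.61 and 5.51 in IgE_BMMC, the largest SD within a group among the 24 largest changes. It fell by 3.27 (SE 0.47), by 2.72 on slide 1 and 3.82 on slide 2.

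Markers of other cells were summed per array. The sums that fell rest on miR-451, miR-223 and miR-126-3p, which are described above, so they add no separate result. The lymphoid and stromal sums overlapped between the groups. The summed scaled signal of the 3 erythroid and megakaryocytic markers was 133 to 256 intensity units in progenitors and 35.3 on all 4 arrays in IgE_BMMC, the latter the sum of 3 values at the floor. Of these markers miR-451 was above background in progenitors, while miR-144 and miR-486 were on no array of either group. The granulocyte and monocyte marker miR-223 gave 4209 to 7271 intensity units in progenitors and 302 to 500 in IgE_BMMC. The endothelial markers summed to 29.9 to 74.7 intensity units in progenitors and 23.5 on all 4 arrays in IgE_BMMC, with miR-126-3p the 1 of 2 above background. The 3 lymphoid markers summed to 39.6 to 86.8 intensity units in progenitors and 36 to 50.4 in IgE_BMMC, and miR-150, on IgE_BMMC arrays only, was the 1 above background. Of 11 stromal markers 2 were lit in both groups, miR-140 and miR-140*, and the sums overlapped, at 442 to 590 intensity units in progenitors and 514 to 585 in IgE_BMMC. None of 9 epithelial, 8 muscle and 1 liver markers was above background on any of the 8 arrays, and of 9 neuronal markers miR-219 was, in IgE_BMMC. The part of other cells in the falls of miR-223, miR-451 and miR-126-3p was not tested.

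BMMC arrays hold cells of the same culture time without IgE and antigen. They are shared by the 2 steps given here, which add up to the difference described above. The BMMC arrays were brighter on the shared lit probes, at a mean 75th percentile of 1578 intensity units against 393 in progenitors and 385 in IgE_BMMC. Scaling took 2.01 off each first step and added 2.03 to each second step on the log2 scale, by construction, so the steps below hold for values scaled on lit probes. Scaled so, from progenitors to BMMC, miR-223 changed by -4.11 and miR-17 by -3.25 on the log2 scale, and from BMMC to IgE_BMMC by 0.27 and 0.20. MiR-34a changed by 2.87 and then -0.054. With this scaling BMMC already lay beside IgE_BMMC for these miRNAs, and the second step did not pass the test (limma adjusted p = 0.428, 0.607 and 1). Without scaling, miR-223 changed by -2.10 and then -1.76, miR-17 by -1.24 and then -1.84, and miR-34a by 4.88 and then -2.09. Where their change falls between the 2 steps thus depends on the scaling.

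MiR-132 was lit on all 4 BMMC arrays at 3.72 to 4.45, which does not clear the detection limits of the progenitor arrays, so that no fold is given for the first step. In the second step it rose by 3.20 (limma adjusted p = 9.87e-10). MiR-21 changed by 0.24 and then by 1.01 (limma adjusted p = 2.15e-06). The star arms miR-24-1* and miR-24-2* changed by 0.57 and 0.30 and then by 1.28 and 1.24 (limma adjusted p = 6.31e-07 and 2.61e-04). MiR-22 changed by 1.51 and then by 0.72. MiR-212 changed by -0.84 to BMMC and 0.56 from there to IgE_BMMC (limma adjusted p = 0.0144), which left it near its level in progenitors. Without scaling, an alternative added after the data were seen, the second step was 1.17 for miR-132, -1.02 for miR-21, -0.75 and -0.79 for the star arms, -1.31 for miR-22 and -1.47 for miR-212, so that the direction held for miR-132 alone of these 6. Of the 140 calls, 39 were also called between IgE_BMMC and BMMC when scaled on lit probes.

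**Figure D5:**
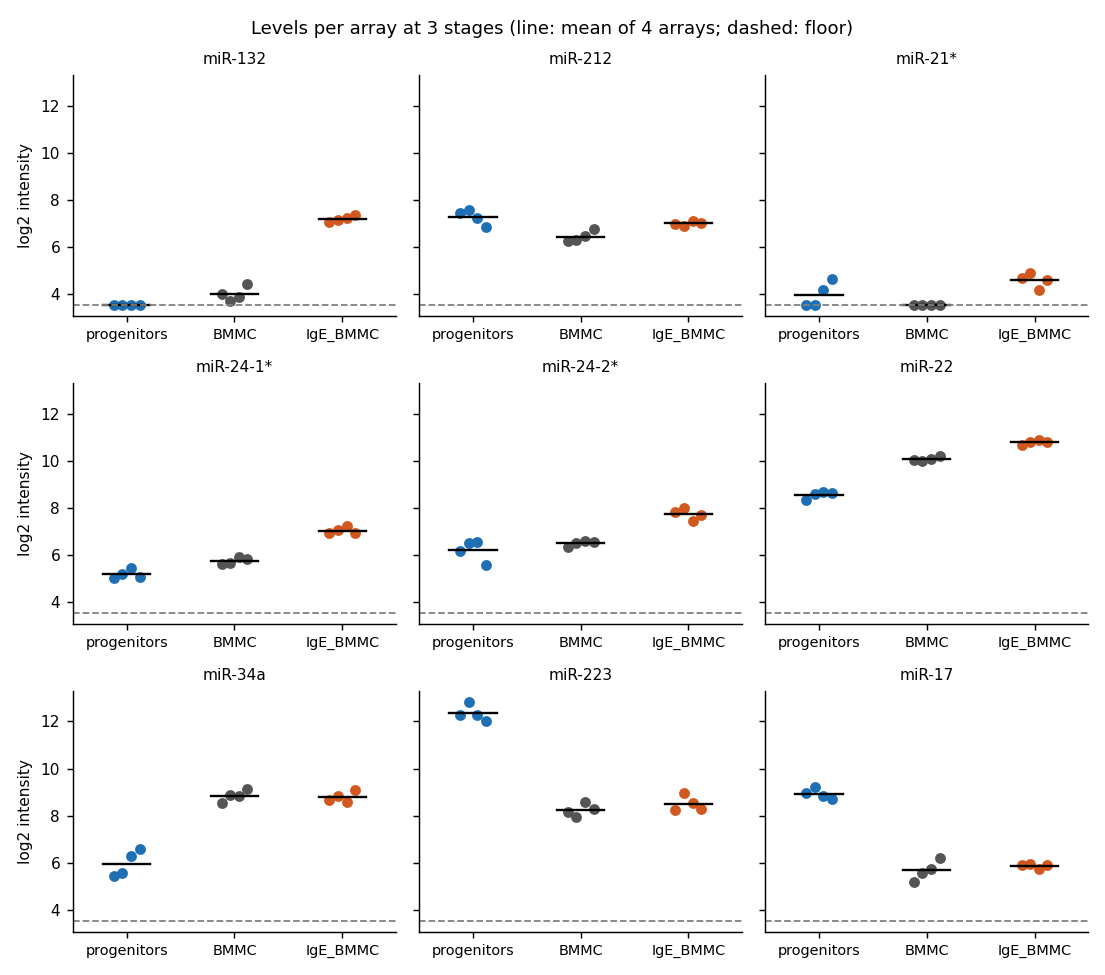
Scaled signal (log2 intensity) per array of 9 miRNAs in progenitors, BMMC and IgE_BMMC, with the mean of 4 arrays as a line and the floor dashed. MiR-132 leaves the floor mainly in IgE_BMMC (mean 7.22 against 4.01 in BMMC), whereas miR-34a, miR-223 and miR-17 are already in BMMC near their level in IgE_BMMC when scaled on lit probes. Without scaling, the IgE_BMMC mean lies below the BMMC mean for miR-22, miR-212 and both miR-24 star arms. It does so too for miR-34a (-2.09 on the log2 scale), miR-223 (-1.76) and miR-17 (-1.84).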

How the data were processed

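Total RNA (100 ng, RNA integrity number above 8, per the labels) was labelled with Cy3 and hybridised to 1-colour Agilent miRNA arrays. The deposited scanner files hold intensity values per spot from Agilent Feature Extraction 9.5.1.1, per the file headers, and the values used were its background-subtracted, processed signals; of 12493 spots 953 are controls, and 1712 probes read 577 miRNAs. The deposited value table of the series holds log2 values for 599 entries, with array medians from -0.98 to 0.82; their scaling and centring are not given in the sources used here, and the table served as an alternative.

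Control spots and spots with outlier flags were left out, and the rest averaged per probe. Each array was divided by its 75th percentile over the 205 probes well above background on all 16 arrays, a floor of 11.8 intensity units was set, and log2 was taken. The brightest probe stood for a miRNA. Testing required a probe well above background on 3 or more of the 4 arrays of either group. The fit used limma 3.58.1 in R 4.3.3 over 4 groups of 4 arrays, with Benjamini-Hochberg adjustment over 177 miRNAs (176 mouse, 1 viral), called at an adjusted p under 0.05. The limma fit alone was tried on simulated log2 values, which did not cover the scaling, the floor or the condition for a test. The number of arrays limits the precision; no spot was saturated. Of a miRNA above background on no array of one group, the bound is the bright group's mean against the higher of each dim array's lowest lit signal and the probe's own.

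Each of the 2 slides held 2 arrays of every group. The alternatives covered scaling, background correction, filter, floor, probe summary, slide or replicate number as a block, and leaving out each array. Named miRNAs are the called ones without overlap between groups that rose most (12) or fell most (12), the 4 called star arms with the lowest adjusted p, and members of family and marker lists. The members and lists were chosen with earlier results of these data known. Within-array pairs were chosen after values were seen. Sequences and coordinates are from RefSeq (GRCm38.p6).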

Additional observations from a re-analysis of the deposited data

Results flagged for a closer look

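Among groups of 4 arrays, 18 of 164 looked at had 1 array far from the other 3 (Dixon's criterion at its 95% critical value), where chance gives about 1 in 20. IgE_BMMC replicate 3 was the low array for miR-17 (5.76), miR-20a (7.94), miR-25 (6.53), miR-130b (6.20), miR-155 (5.92), miR-23a (11.7) and miR-101b (6.52), all in log2 intensity, and for the 75th percentile of shared lit probes (311 intensity units), and the high array for miR-29a (9.94). IgE_BMMC replicate 4 stood apart for miR-365 (7.04) and IgE_BMMC replicate 2 for miR-26b (9.84). Progenitor replicate 2 stood apart for miR-146a (7.92), miR-15b* (6.39), miR-221 (9.61) and miR-15b (10.6). Progenitor replicate 4 stood apart for miR-27b (9.63), for the 75th percentile of all probes (20.0 intensity units) and for the lowest signal well above background (58.3 intensity units after scaling).

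The array also carries probes for 10 miRNAs of a mouse herpesvirus. Of these mghv-miR-M1-2 was well above background on 6 of the 8 arrays, 2 of progenitors and 4 of IgE_BMMC. It was the 1 viral miRNA among the 177 tested and was not called (log2 -0.11, limma adjusted p = 0.346). The probes for mghv-miR-M1-7-3p and mghv-miR-M1-9 were lit on 1 progenitor array each, and the other 7 on none.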

How the results depend on the processing

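The count of 140 calls was 136 to 145 when single arrays were left out, 118 and 132 within slides 1 and 2, and 125 with the 8 arrays alone. It was 86 of 109 tested, 31 higher and 55 lower, where every array had to be above background. The split was 104 higher and 33 lower with all probes, 77 higher with quantile normalisation, 88 and 41 with the series' value table, 109 and 16 with bright corner controls, and 123 and 22 with the second kind of control feature. The 75th percentile of raw signal differed by -6.63 intensity units over all probes (exact two-sided permutation test, p = 0.0286) and by -7.24 over shared lit probes (exact p = 0.914); without single arrays the former was -7.86 to -3.37, each at an exact p of 0.0571, the smallest that 3 against 4 arrays can give. With all probes, miR-106b was 0.27, miR-142-3p 0.84, miR-142-5p 0.81, miR-212 1.04, miR-221 1.18, miR-222 0.82, miR-155 0.063, miR-15b 0.78, miR-16 1.02, miR-365 0.92, miR-101b 0.44, miR-10a 0.35 and miR-720 0.50, all negative when scaled on lit probes. With quantile normalisation miR-212 was 0.41, miR-222 0.078, miR-16 0.061 and miR-365 0.18. In the value table miR-142-3p was 0.48, miR-142-5p 0.43, miR-212 1.02, miR-221 0.85, miR-222 0.48, miR-15b 0.41, miR-16 0.56, miR-365 0.48, miR-101b 0.17, miR-10a 0.031 and miR-720 0.15. With no scaling, the step from BMMC to IgE_BMMC was -1.76 for miR-223, -1.84 for miR-17, -1.02 for miR-21, -0.75 for miR-24-1*, -0.79 for miR-24-2*, -1.31 for miR-22 and -1.47 for miR-212, all positive when scaled on lit probes, and the step of miR-212 from progenitors to BMMC was 1.17. The cause was not tested beyond the shift that each scaling makes by construction. With the replicate number as a block 141 were called, 139 of them the same calls. Same-numbered arrays deviated together only weakly (r = 0.11, 0.21, 0.07 and 0.03 across miRNAs), so the numbers were not taken to pair the arrays. The control features, the within-slide fits and the unscaled BMMC steps were chosen after seeing the data. Levels near the floor are limited by the detection limit, which was highest on progenitor replicate 4.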
